A study of Equus caballus with 8 samples.

Results

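The elastic fibre and microfibril genes described here are 10 genes chosen by symbol: ELN, FBN1, FBN2, FBLN1, FBLN2, FBLN5, EFEMP1, EFEMP2, MFAP2 and MFAP5. All 10 had a row among the 15266 named genes in the table of normalized counts. The study measured poly(A)-selected RNA from equine mesenchymal stem cells grown from bone marrow (BM-MSCs), the stromal cells that adhere and grow when marrow is cultured, and asked how exposure to transforming growth factor-β2 (TGF-β2) alters their gene expression for use in tendon injury. Sternal marrow of 4 adult horses (D, J, L and W), Thoroughbreds or Thoroughbred crosses, was split between an untreated and a TGF-β2-treated culture, giving 4 untreated and 4 treated libraries paired by horse. Treated cultures received recombinant human TGF-β2 at 1 ng/ml from isolation until RNA was taken at passage 3 or 4 per the labels, while the study's methods give 3 passages of treatment. Untreated cultures were grown in the same way without it. Both arms were grown in low-glucose medium with 10% fetal bovine serum, antibiotics and basic fibroblast growth factor at 1 ng/ml, so the untreated cells also carried a growth factor. The passage of each library was not given in the sources used here.

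Elastic fibres have an elastin core laid down on a scaffold of microfibrils, the thin filaments built from fibrillins, and they give skin, vessels, lung and tendon their recoil. Fibulins help tropoelastin, the soluble elastin monomer, to settle on that scaffold and to meet the lysyl oxidases that cross-link it, while the microfibril-associated glycoproteins bind fibrillin. Microfibrils also hold latent TGF-β, and cells grip fibrillin through integrins. In tendon, fibrillin and elastin lie between the fascicles and around the tendon cells.

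Read depth was similar in the groups, at 40044240 to 57228675 reads in the untreated and 39184554 to 46634539 in the treated libraries. A gene was called higher or lower when its adjusted p in limma, with the horse as a block, was under 0.05 and its log2 fold change exceeded 1 in size. Of the stromal markers, all 6 listed were expressed, with a summed level of 161816 to 355467 normalized counts untreated and 172849 to 271837 treated. THY1 (CD90) fell (log2 fold change −2.21, limma adjusted p = 0.00203), and the other 5 were not called. ITGB1 went up in all 4 horses (log2 fold change 0.91, limma adjusted p = 0.0159). PDGFRB (−0.71, adjusted p = 0.0367) and ENG (−0.42, adjusted p = 0.0409) went down in all 4. These genes missed the call only through the fold threshold. CD44 (0.43) and NT5E (−0.08) differed in direction between horses. The sum therefore hides opposing changes and does not show that each marker kept its level. The smooth muscle markers ACTA2, TAGLN and CNN1 rose, 3 of 5 listed. MYH11 (log2 fold change −0.12) and MYOCD (1.16) were not called and moved in both directions between horses. The list summed to 85709.9 to 305080.2 untreated and 345262 to 877839 treated, most of it from ACTA2 and TAGLN. The untreated library of horse J stood apart in leukocyte markers (PTPRC, ITGAL and CD68 summed to 2601 normalized counts there, against 491 to 822 in the other untreated and 387 to 711 in the treated libraries). Most of the sum in that library was CD68 (2437), with 110 from PTPRC and 53.9 from ITGAL. KDR, an endothelial marker, rose (log2 fold change 2.27, adjusted p = 0.0109), but KDR and CDH5 were near 0 in every library, at 7.10 to 26.3 normalized counts summed untreated and 30.0 to 55.7 treated. The listed markers CD14, CD34, PECAM1, VWF, EPCAM, KRT18 and CDH1 had no row under these symbols and could not be analysed. The endothelial check therefore rests on KDR and CDH5 alone, and no epithelial marker could be checked.

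With TGF-β2 treatment, 4 of the 10 genes passed the test. FBN1, ELN and FBLN2 rose, EFEMP1 fell, and the other 6 genes did not pass the test. The 3 higher calls of 10 stand beside 6.83% of all 14907 genes tested called higher, and the 1 lower call beside 7.31% called lower. Without the horse block, 3 were higher (FBN1, ELN and MFAP2) against 5.59% of genes, and 1 was lower (EFEMP1) against 5.87%. The median log2 fold change was 0.44 over the 10 genes and 0.01 over all tested genes. For 4 of the 10, the change had 1 direction in all 4 horses, as it did for 51.9% of genes tested. Only ELN among the 10 had treated libraries that did not overlap the untreated ones, against 27.8% of genes tested. In cultures sampled as a whole, fewer cells of a type and less RNA per cell cannot be told apart.

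**Figure D1:**
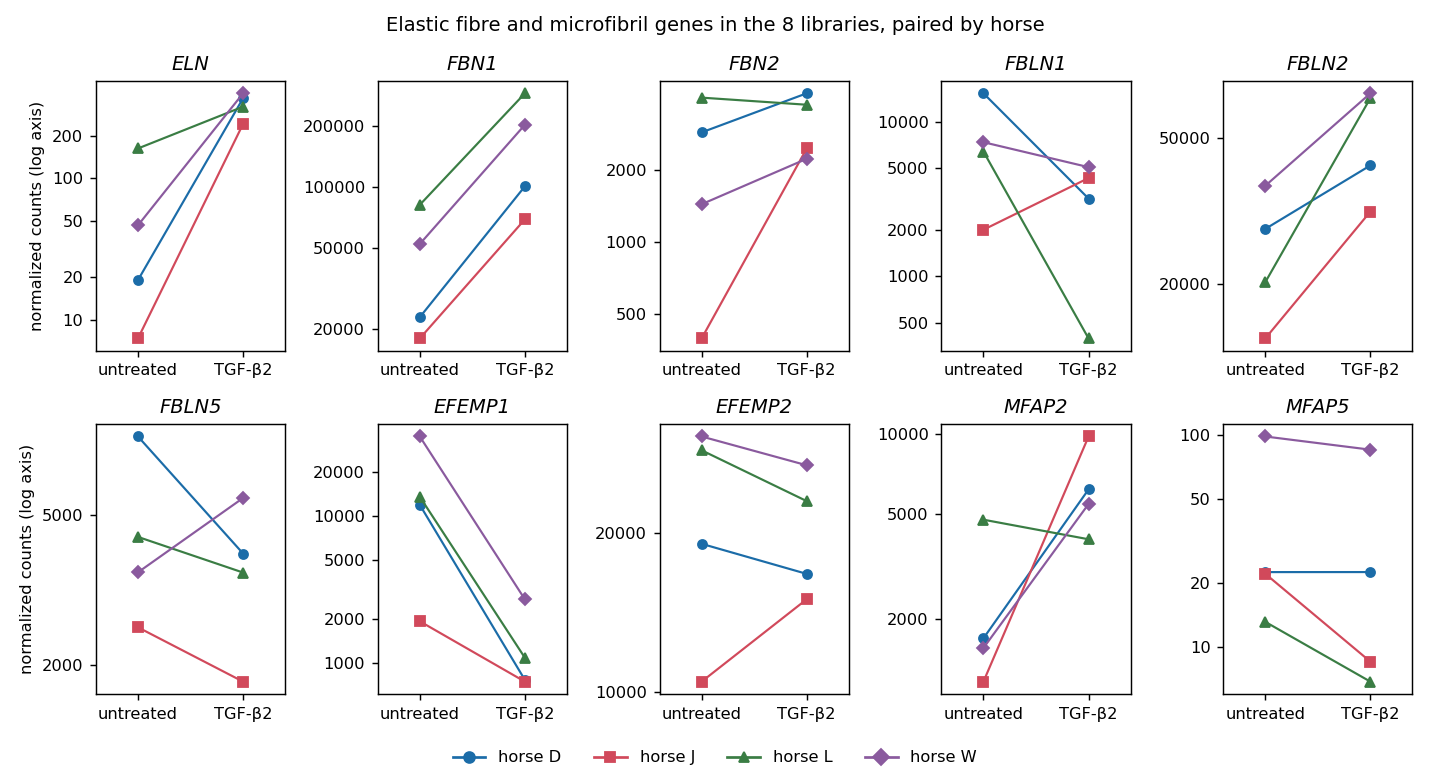
Normalized counts (log axis, a different range in each panel) of the 10 genes in the untreated and the TGF-β2-treated library of each horse, with a line joining the libraries of 1 horse. FBN1 climbs along nearly parallel lines from 18025 to 81779 untreated to 69434 to 289095 treated, EFEMP1 drops in each horse, and the lines of FBN2, FBLN1, FBLN5, EFEMP2 and MFAP2 do not share a direction.

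ELN encodes tropoelastin, the monomer of the elastic core. In untreated cells its normalized counts were 19.1 in horse D, 7.41 in J, 163 in L and 46.7 in W. After treatment they were 369, 243, 322 and 400.1 in the same order. Each treated library exceeded each untreated one, and on a ratio scale the treated libraries lay much closer together than the untreated ones. The mean went from 59.1 ± 71.2 (SD, n = 4) to 334 ± 68.4. By the fit, which averages the log2 changes of the horses, ELN rose 9.70-fold (log2 fold change 3.28, SE 0.64, limma adjusted p = 0.0169). That value is larger than the ratio of the means. The log2 change was 4.20 in D, 4.86 in J, 0.98 in L and 3.07 in W. Horse L, which had the most ELN before treatment, had the smallest change. The untreated level enters the change, here and for the genes below, so a relation between them is partly built in. These levels rest on few reads, from 11 in the untreated library of J to 333 in the treated library of W. Leaving out horse D (log2 fold change 2.97, adjusted p = 0.0803) or W (3.35, adjusted p = 0.0794) ended the call. The size of the rise also varied, with a log2 fold change of 4.04 without horse L and 2.499 in DESeq2 without the horse, both called. The smooth muscle markers ACTA2, TAGLN and CNN1 also rose in all 4 horses, while MYH11 and MYOCD did not. The part of these markers in the ELN result was not tested.

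FBN1 encodes fibrillin-1, the main structural protein of microfibrils. Untreated libraries held 22926 normalized counts in D, 18025 in J, 81779 in L and 52492 in W, and treated libraries 100878, 69434, 289095 and 202474. The horses kept their order, L highest and J lowest, in both arms, and the groups overlapped because the untreated library of L exceeded the treated library of J. FBN1 rose 3.90-fold (log2 fold change 1.96, SE 0.13, limma adjusted p = 0.00135). The log2 change was 1.82 to 2.14 in the 4 horses, with an SD of 0.130 against a median SD of 0.313 over all tested genes. Without the block the call held at adjusted p = 0.0465. FBN1 was called higher in all 16 alternative settings and left-out-horse fits computed for single genes.

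FBN2 encodes fibrillin-2, the isoform known best from embryonic microfibrils. Its normalized counts were 2872, 394, 4016 and 1437 in untreated cells of D, J, L and W, and 4188, 2461, 3750.0 and 2227 in treated cells. The log2 changes of 0.54, 2.64, −0.10 and 0.63 differed between horses, with J far above the others from the lowest starting level. FBN2 did not pass the test (log2 fold change 0.93, 95% interval −0.16 to 2.02, limma adjusted p = 0.161). Relative to FBN1 in the same library, FBN2 went down in D, L and W, by log2 ratios of −1.59, −1.92 and −1.31, and up in J by 0.70.

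The short fibulins assist elastic fibre assembly. EFEMP1 (fibulin-3), a glycoprotein of fascia and basement membranes, was the 1 gene of the 10 called lower. Its normalized counts were 11915 in D, 1932 in J, 13517 in L and 34651 in W before treatment, and 773, 753, 1092 and 2720.0 after it. Every horse went down, though the untreated library of J lay below the treated library of W, so the groups overlapped. EFEMP1 fell 8.88-fold (log2 fold change −3.15, SE 0.45, limma adjusted p = 0.00703), with log2 changes of −3.94, −1.36, −3.63 and −3.67. Horse J, which had the least EFEMP1 to begin with, moved least. EFEMP1 was called lower in all 16 alternative fits, at −3.75 to −2.89.

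EFEMP2 (fibulin-4), which brings lysyl oxidase to tropoelastin, stayed near its untreated level. Normalized counts were 19117, 10465, 28773 and 30563 in untreated D, J, L and W, and 16762, 15004, 23039 and 26949 in the treated libraries. D, L and W went slightly down and J went up. The fitted log2 fold change was −0.04 with a 95% interval of −0.45 to 0.36 (limma adjusted p = 0.861), an interval that lies inside a 2-fold change either way. Within each library the log2 ratio of EFEMP2 to EFEMP1 was −0.18 to 2.44 untreated and 3.31 to 4.44 treated, with no overlap. The mean gain was 3.11 ± 0.839 (SD, n = 4 horses). As EFEMP2 itself hardly changed, this gain repeats the fall of EFEMP1. The share of other gene pairs whose ratios do not overlap was not computed.

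FBLN5 (fibulin-5), which binds tropoelastin, cell-surface integrins and LOXL1, did not pass the test. Its normalized counts were 8074, 2518, 4373 and 3523 before treatment and 3951, 1807, 3518 and 5547 after it, lower in D, J and L and higher in W. The log2 fold change was −0.29 (95% interval −0.95 to 0.37, limma adjusted p = 0.439).

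The larger fibulins FBLN1 and FBLN2 are found in elastic tissues and basement membranes. FBLN2 had 28226, 14157, 20175 and 37042 normalized counts in untreated D, J, L and W, and 42119, 31494, 64388 and 66349.7 after treatment. Each horse increased, by log2 0.58, 1.15, 1.67 and 0.84, while the groups overlapped through the untreated library of W. FBLN2 rose 2.09-fold (log2 fold change 1.06, SE 0.20, limma adjusted p = 0.0146). That call lay close to the fold threshold. It was lost without the block (adjusted p = 0.0589), without horse W (adjusted p = 0.0603), without horse L (log2 fold change 0.86) and when libraries were scaled to their total reads (0.75).

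FBLN1 was the most divided of the fibulins. Untreated libraries had 15327, 2005, 6430.1 and 7393 normalized counts, and treated libraries 3189.7, 4334, 397 and 5096. The log2 changes were −2.26 in D, 1.11 in J, −4.02 in L and −0.54 in W. With an SD over horses of 2.21, the log2 fold change of −1.43 was not called (95% interval −3.44 to 0.59, limma adjusted p = 0.229). Without horse J, whose untreated library held the most leukocyte marker counts, FBLN1 was called lower (log2 fold change −2.27, adjusted p = 0.0411), and without horse L the value shrank to −0.56 (adjusted p = 0.568). The part of the leukocyte markers was not tested. The log2 ratio of FBLN2 to FBLN1 was 0.88 to 2.82 in untreated and 2.86 to 7.34 in treated libraries. That ratio grew by 5.69 in L, by 2.84 in D and by 1.38 in W, and was almost level in J at 0.04.

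**Figure D2:**
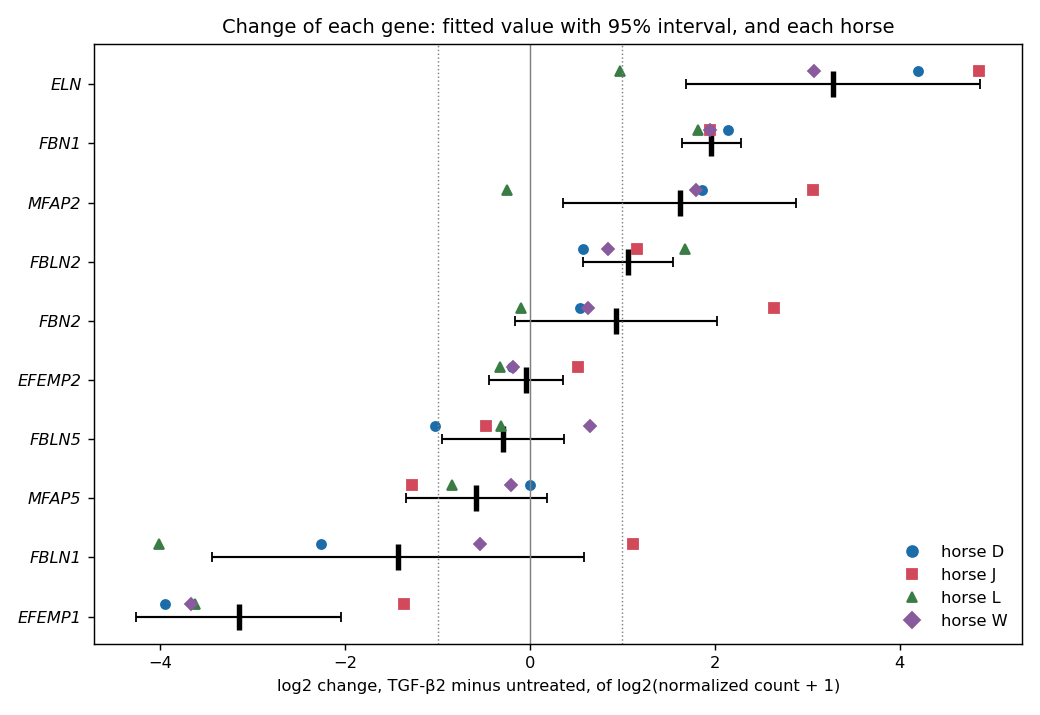
Log2 change of each gene, TGF-β2 minus untreated, on the log2(normalized count + 1) scale, with the fitted value, its 95% interval and the change in each horse as a symbol. The interval of FBN1 is narrow, from 1.65 to 2.28, that of ELN runs from 1.68 to 4.87, and the symbols of FBLN1 stretch from −4.02 to 1.11.

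MFAP2 and MFAP5 encode the microfibril-associated glycoproteins MAGP-1 and MAGP-2, which bind fibrillin. MFAP2 had 1698, 1165, 4749 and 1560.4 normalized counts in untreated D, J, L and W, and 6176, 9773, 4008 and 5441 in treated cells. D, J and W went up by log2 1.86, 3.07 and 1.80, and L, with by far the highest untreated level, went from there to the lowest treated level (−0.24). With the block the log2 fold change of 1.62 missed the threshold (SE 0.51, limma adjusted p = 0.0606). It was called higher without the block (adjusted p = 0.0321), in DESeq2 with the horse (adjusted p = 0.00237) and without it (adjusted p = 0.00910), and without horse L (log2 fold change 2.24, adjusted p = 0.0134).

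MFAP5 was scarcely detected, with 6 to 97 reads a library. Normalized counts were 22.6, 22.2, 13.2 and 98.4 untreated and 22.6, 8.56, 6.90 and 85.3 treated. Horse W held the most in both arms. The log2 fold change was −0.58 (95% interval −1.35 to 0.18, limma adjusted p = 0.199). The log2 ratio of MFAP5 to MFAP2 went down in each horse, by −1.86, −4.44, −0.69 and −2.01, but the untreated and treated ratios overlapped.

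**Figure D3:**
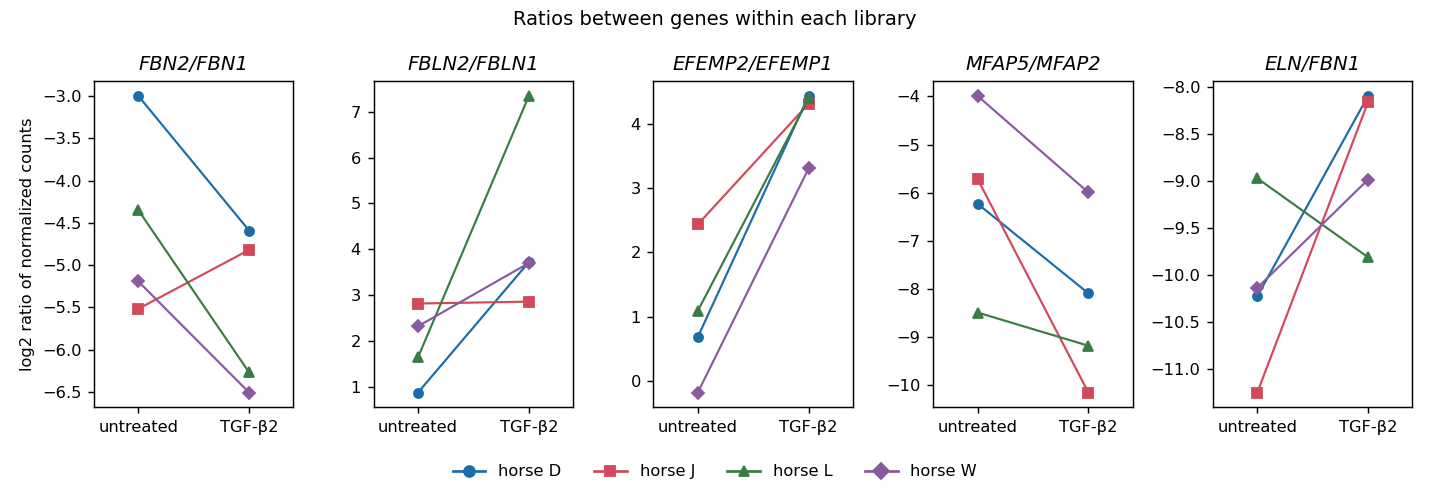
Log2 ratio of normalized counts between named pairs of the genes within each library, untreated and TGF-β2-treated, with a line for each horse. Ratios are not corrected for transcript length, so their change can be read but not their level. The treated values of EFEMP2 to EFEMP1 (3.31 to 4.44) lie above the untreated ones. Those of FBLN2 to FBLN1 (2.86 to 7.34) do so only narrowly, as the highest untreated value was 2.82. The other pairs overlap.

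The 10 genes together took up 0.286% of all reads in untreated D, 0.132% in J, 0.391% in L and 0.415% in W, and 0.382%, 0.298%, 0.727% and 0.599% in the treated libraries. The share was larger after treatment in each horse. FBN1 supplied 20.8% to 49.9% of the reads of the 10 genes in untreated and 51.3% to 74.2% in treated libraries. The share from EFEMP1 was 3.81% to 20.5% before treatment and 0.280% to 0.857% after it. These are shares of reads, which depend on transcript length as well as on transcript number. ELN and FBN1 both rose in each horse, but by amounts whose relation differed between horses. The log2 ratio of ELN to FBN1 changed by 2.13 in D, 3.09 in J, −0.84 in L and 1.15 in W.

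The horses differed before any treatment. Horse J had the lowest untreated level of 9 of the 10 genes, all but MFAP5, whereas it was lowest for 35.8% of all tested genes. On the log2 scale it lay below the untreated mean by values of −0.35 for MFAP5 to −2.40 for EFEMP1, with FBN2 at −2.02, ELN at −2.01 and FBLN1 at −1.62. After treatment J was lowest for 6 of the 10, against 29.8% of tested genes. Horse L was highest before treatment for ELN (2.27 above the mean), FBN1 (1.16), FBN2 (1.33) and MFAP2 (1.28). W was highest for EFEMP1 (1.77) and MFAP5 (1.74), and D for FBLN1 (1.31) and FBLN5 (0.94). The untreated library of J was also the one with 110 normalized counts of PTPRC and 2437 of CD68, a leukocyte and a macrophage marker. Whether those markers bear on its low elastic fibre levels was not tested. With horse J left out, the log2 fold change was 2.75 for ELN, 1.97 for FBN1, 1.03 for FBLN2 and −3.75 for EFEMP1, and all 4 were still called. It was 0.36 for FBN2 and 1.14 for MFAP2, neither of them called.

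**Figure D4:**
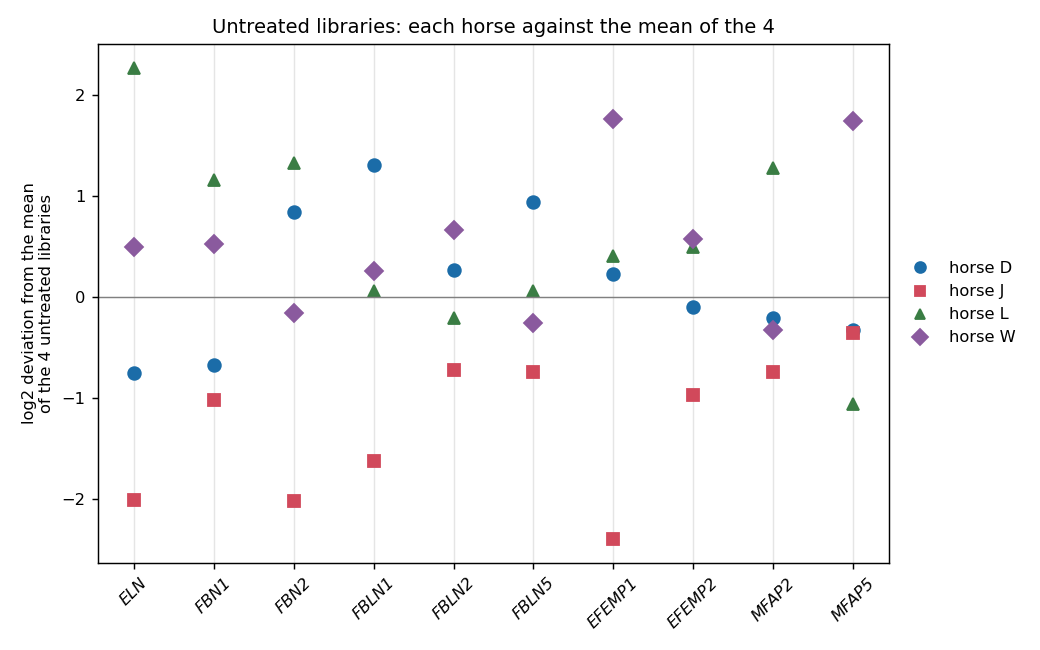
Log2 deviation of each untreated library from the mean of the 4 untreated libraries, for each of the 10 genes, with a symbol for each horse. Horse J lies lowest for all genes but MFAP5, reaching −2.40 for EFEMP1, and horse L lies highest for ELN at 2.27.

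Beyond these 10, 49 genes that assemble, cross-link, cleave or bind elastic fibres and microfibrils were listed, and 44 were tested. Of the 44, 12 rose, 5 fell and 27 were not called, beside 6.83% and 7.31% of all genes, with a median log2 fold change of 0.37. The count without the horse block was 9 higher and 4 lower. With libraries scaled to total reads, which shifted the median of all genes by log2 −0.30, it was 11 higher and 10 lower.

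Of 10 further microfibril and elastic fibre proteins tested, 3 rose and none fell. MFAP4, a microfibril-associated protein that binds elastin and fibrillin-1, ran from 22.2 to 493 normalized counts in untreated and from 1621 to 10492 in treated libraries. It rose 28.3-fold (log2 fold change 4.82, SE 0.40, limma adjusted p = 0.00207). The proteoglycan BGN (log2 fold change 1.49, adjusted p = 0.00886) and EMILIN3 (1.67, adjusted p = 0.0190) rose too, the latter from as few as 2 reads. Of the 4 latent TGF-β binding proteins, which resemble fibrillins, LTBP1 rose (log2 fold change 1.70, SE 0.10, limma adjusted p = 0.00121). Its change lay in a narrow band of 1.53 to 1.81 on the log2 scale over the 4 horses. The other 3 were not called. Of 7 ADAMTS and ADAMTS-like genes, ADAMTS6, a secreted metalloproteinase, alone was called, from 55.2 to 87.9 normalized counts untreated to 542 to 3129 treated (log2 fold change 4.51, SE 0.36, adjusted p = 0.00199).

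Cross-linking and folding genes had 4 of 7 higher and 1 lower. The lysyl oxidases LOXL2 (log2 fold change 2.63, adjusted p = 0.00253), LOXL4 (1.64, limma adjusted p = 0.0220) and LOX (1.44, adjusted p = 0.00177) rose, as did FKBP10 (1.16, adjusted p = 0.00589), a prolyl isomerase of the endoplasmic reticulum. LOXL3, chosen after its values were seen, was the lower one (−1.03, adjusted p = 0.0246). LOXL1, the family member most closely tied to elastin, was also chosen after its values were seen and had a log2 fold change of 0.09 with an interval of −0.18 to 0.35. Of 7 elastin-degrading enzymes, 3 fell and none rose. CTSK, a cysteine protease, went from 24770.4 to 31894 normalized counts untreated to 11171 to 17199 treated (−1.04, adjusted p = 0.00874), without overlap. MMP9 (−2.15, adjusted p = 0.0209) and MMP12 (−2.03, adjusted p = 0.0399) were the others, MMP12 with as few as 3 reads in a library.

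Of 9 integrin and elastin receptor genes, 3 rose and 1 fell. ITGB3, whose product pairs with the integrin αV chain to bind fibrillin-1, went from 1013 to 1865 normalized counts untreated to 7974 to 10419 treated (log2 fold change 2.71, limma adjusted p = 6.5e-04). ITGA5 (2.46, adjusted p = 0.00100) and ITGAV (1.32, adjusted p = 0.0191) rose as well. ITGB8, whose product with αV activates latent TGF-β, fell by 2.49 on the log2 scale (adjusted p = 0.00520). Without the horse block, the calls of EMILIN3 (adjusted p = 0.0522), LOX (0.0633), LOXL4 (0.0519) and MMP12 (0.430) were lost.

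**Figure D5:**
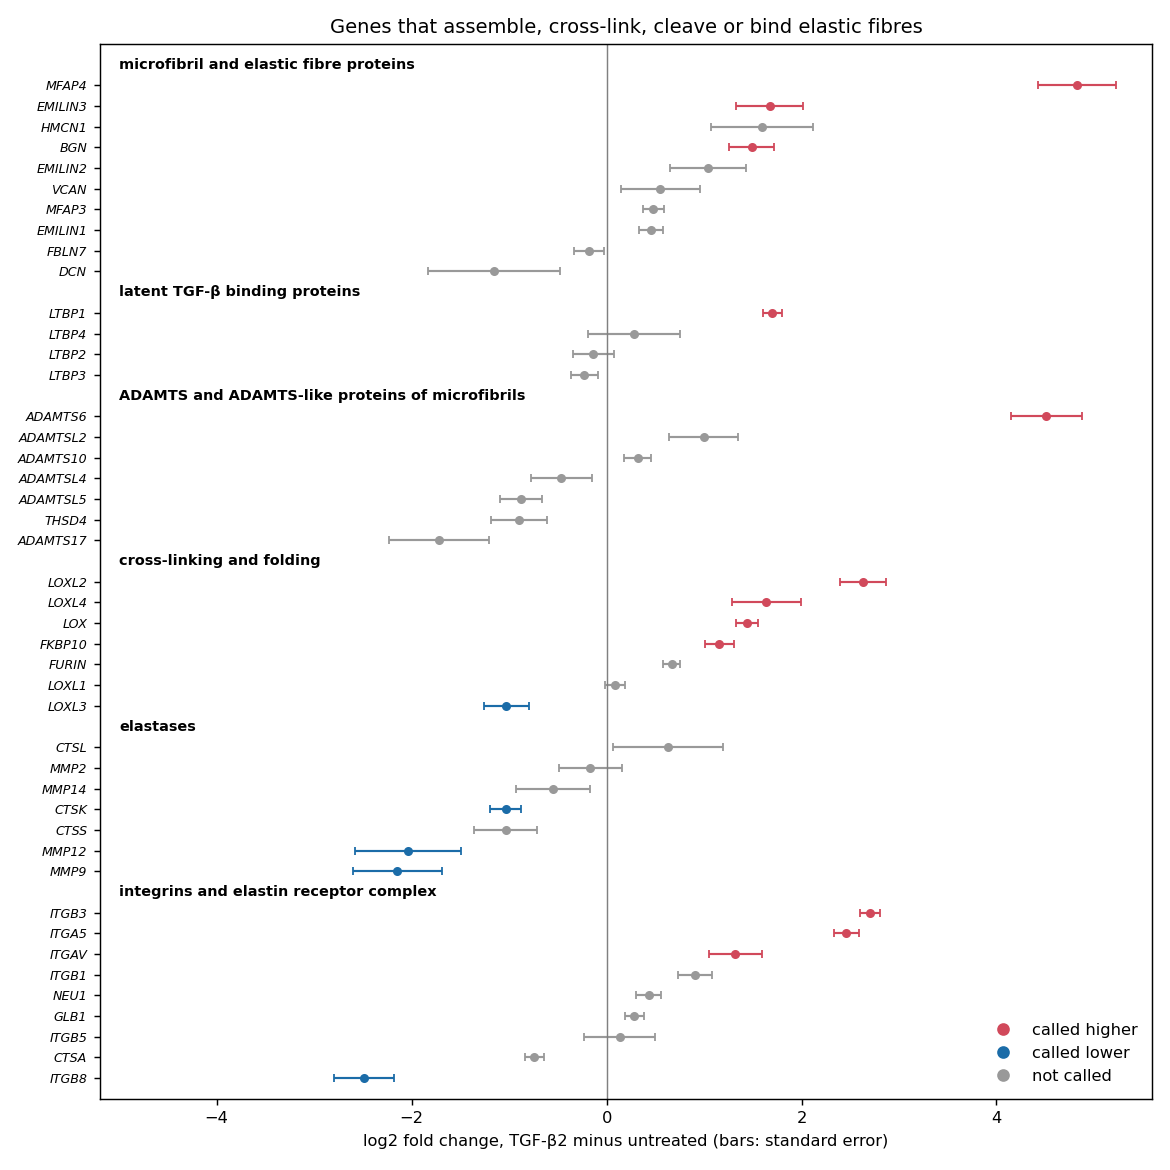
Log2 fold change (TGF-β2 minus untreated, bars are the standard error) of the tested genes that assemble, cross-link, cleave or bind elastic fibres, grouped by role and coloured by whether they passed the test. MFAP4 at 4.82 and ADAMTS6 at 4.51 lie farthest to the right, ITGB8 at −2.49 farthest to the left, and the elastin-degrading enzymes called are all below 0.

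The genes whose levels followed each member most closely were found by Pearson's r over the 8 libraries, a description in which treatment and horse are shared by all points. They are the highest of all 14907 genes tested, and such a search over 8 points yields high r for unrelated genes too. How high r runs for unrelated genes was not tested. ELN ran with MACO1 (r = 0.993), N4BP2 (0.993) and COL1A1 (0.990), the last encoding a collagen I chain. FBN1 ran with PRUNE2 (0.996), RCOR1 (0.994) and UPK3B (0.993), and EFEMP1 with LOC100059899 (0.991), PROS1 (0.988) and MPPE1 (0.988). For EFEMP2 they were PAK3 (0.991), KLHL15 (0.984) and AOC3 (0.982), and for FBLN2 LOC106781558 (0.990), LOC102147595 (0.979) and LOC102149515 (0.976). FBN2 was closest to PPP1R26 (0.966), LOC111771490 (0.966) and NELFA (0.952), and MFAP2 to TWNK (0.976), CNOT11 (0.973) and LOC111771541 (0.967). FBLN1 was closest to MPPED2 (0.937), C25H9orf152 (0.936) and EBF2 (0.932), FBLN5 to UBXN6 (0.971), CISH (0.934) and KPTN (0.927), and MFAP5 to LOC100146471 (0.944), HEXDC (0.940) and LOC102149412 (0.936).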

How the data were processed

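Per the study's methods, the authors trimmed reads with Trimmomatic 0.36, mapped them to EquCab 3.0 with STAR 2.5.2b, counted unique gene hits with featureCounts of Subread 1.5.2 and normalised with DESeq2. The deposited values are a signal, read counts divided by library size factors. All values in each library were whole multiples of 1 read within 0.1, so read numbers were recovered. Of 15267 rows, 1 without a name (0.0281% to 0.0531% of reads) was left out.

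The 14907 genes that reached 10 normalized counts in 4 or more libraries were fitted as log2(normalized count + 1) in limma 3.58.1 (R 4.3.3, trend) on horse and treatment, with Benjamini-Hochberg adjustment and the study's thresholds (0.05, log2 1). Fold changes on this scale understate those of low genes. Same-horse libraries deviated together (r = 0.386 to 0.609 for the 4 pairs), as the labels' pairing by horse implies. Replicates are separate horses. DESeq2 1.42.0 and edgeR 4.0.16 were run on the recovered reads. In simulated data for this comparison (15123 genes, 200 changed by log2 2), limma with the block recovered 200 and called 1 other. The 10 genes, the lists and the tests were chosen with earlier results of these data known. Named were all 10 genes, up to 4 called genes of each list with the largest changes, the 3 closest genes by correlation and the markers. Transcript lengths were not used here, so levels are not compared between genes, and no sequences were analysed here.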

Additional observations from a re-analysis of the deposited data

Results flagged for a closer look

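Among the 10 genes and the 16 named genes of their assembly, cross-linking and receptor lists, each group of 4 libraries was searched for a library far from the other 3. In 4 of 52 groups the gap to the nearest library exceeded the critical value of Dixon's test, which chance passes in about 1 of 20 groups. All 4 were untreated groups. MFAP2 stood out in horse L at 4749 normalized counts, against 1165 to 1698 in the others. MFAP5 stood out in horse W at 98.4, against 13.2 to 22.6. The integrin ITGA5 was highest in horse L at 21799.5, against 16319 to 16986, and ITGAV was lowest in horse J at 4388, against 9878 to 10939.8.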

How the results depend on the processing

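FBN1 and EFEMP1 kept their calls and directions in each of the 16 settings and left-out-horse fits computed for single genes. Of the 10 genes, 3 were called higher, and leaving out 1 horse gave 1 (without W, FBN1) to 3, while adjusted p under 0.01 gave 1. The lower count was 1, and 1 to 2 with a horse left out (EFEMP1 and, without J, FBLN1). EFEMP2 changed sign among the fits without a horse, at −0.23 to 0.0495. Without the horse block, 834 genes in all were called higher and 875 lower, against 1018 and 1090 with it. Leaving out a horse gave 549 to 1162 higher and 536 to 1324 lower, the lowest without W and the highest without J (587 and 589 without D). Adjusted p under 0.01 gave 567 and 549, and no fold threshold 2334 and 2276. Scaling to total reads gave 698 higher and 1839 lower (27.5% of calls higher, against 48.3%). Among the 44 listed partner genes, 5 were lower, with 10 under total scaling (52.4% of calls higher, against 70.6%), 2 at adjusted p under 0.01, and 1 (without D) to 8 (without J) with a horse left out, 2 without W. The causes were not tested. MFAP5 was not tested with a filter of 50. Libraries at these depths allow a gene with no reads up to 2.02 to 3.60 normalized counts, for counting error only. With 4 horses, the intervals of FBN2, FBLN1, MFAP2 and MFAP5, which were not called, reached past a 2-fold change.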
